A study of Sus scrofa with 40 samples.

Results

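IGFN1, RASGEF1A, USH1C, GTSE1, PHF21B and NRN1 were followed across 4 meat cuts of the pig. They were selected on their measured counts, for higher values in the longissimus dorsi muscle (LDM) than in pork belly (PB) or hamstring muscle (HM) in earlier results of these data, with no numerical threshold, and they are 6 of the 21280 genes of the deposited table. The contrasts of LDM over PB and LDM over HM therefore chose the genes, and their values are given below as a description without a test. The trapezius muscle (TM) was not used in the choice, but its comparison with LDM uses the same LDM libraries, so those p-values are not independent of the choice.

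Skeletal muscle fibres are built from repeated sarcomeres, whose giant and filamentous proteins carry immunoglobulin-like and fibronectin type III domains. IGFN1 encodes one such protein, found at the Z disc and known in the mouse as a partner of the muscle protein KY, which also binds filamin C, and of the translation elongation factor eEF1A. The other 5 genes are better known outside the muscle fibre. RASGEF1A encodes an exchange factor that loads small GTPases of the RAS and RAP family with GTP, and USH1C encodes harmonin, a PDZ scaffold protein of the hair bundles of the inner ear and of the intestinal brush border. GTSE1 encodes a microtubule-binding protein of the G2 and S phases that restrains p53 in human cells, PHF21B encodes a PHD finger protein related to a subunit of the KDM1A and CoREST complex, and NRN1 encodes neuritin, a small membrane-anchored protein that promotes neurite growth.

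The muscles came from male Chalu black pigs, offspring of a single sire raised together, which were fasted for 24 h and sampled within 45 min of death from the left carcass side, with fascia avoided. Their age was not given in the sources used here, and the labels name no treatment beside the fasting. LDM, TM, PB and HM had 10 libraries each, 40 in all, with total counts between 12305913 and 17735722 per library, so that 1 count was worth 0.0564 to 0.0813 CPM (counts scaled to the library total). A count of 0 allows up to 3 counts, which is 0.169 to 0.244 CPM, and this floor covers counting error only. The labels do not say whether libraries of a cut came from separate pigs, and p-values measure the spread between these libraries, which may be technical. All 40 libraries had the muscle actin gene ACTA1 among their 2 most abundant genes and the muscle creatine kinase gene CKM among their first 6. Library PB1 is titled PB while its tissue field names the longissimus, and it was kept in PB. Libraries TM3, TM7, HM6 and HM9 lay nearer to the mean of another cut than to that of their own, TM7 and HM9 to LDM. In whole muscle, fewer cells of a type and less RNA per cell cannot be told apart.

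IGFN1 was one of the most abundant transcripts of the longissimus and spanned a wide range in the other cuts. In LDM its lowest, median and highest libraries had 4145, 6350 and 8696 CPM. In TM they had 8.57, 661 and 4834 CPM, in PB 37.8, 541 and 3076 CPM, and in HM 12.1, 367 and 1167 CPM. All 10 LDM libraries lay above all PB and HM libraries, and a single TM library, TM7, reached into the LDM range, above LDM2 at 4145 CPM. The means were 6336 ± 1508 CPM in LDM, 1234 ± 1531 CPM in TM, 661 ± 880 CPM in PB and 453 ± 396 CPM in HM (SD, n = 10 each). IGFN1 took 0.636% of all counts of the LDM libraries, against 0.122% in TM, 0.0644% in PB and 0.0448% in HM. Ranked per length, by mean FPKM, it was gene 30 of the table in LDM, gene 102 in TM, gene 177 in PB and gene 286 in HM.

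The spread of IGFN1 within a cut was itself uneven. The highest LDM library held 2.10 times as much as the lowest, while this ratio was 564 in TM, 81.3 in PB and 96.2 in HM. The fewest counts of IGFN1 in any library were 120, in TM9, and the most were 140498, in LDM4. Library TM2 had 55.2 CPM and TM5 had 147 CPM, whereas TM4 had 2545 CPM and TM8 had 1703 CPM. Among the other cuts PB10 stood alone in PB, where the next library had 654 CPM, and HM6 and HM9 led HM with 1167 and 1065 CPM.

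**Figure D1:**
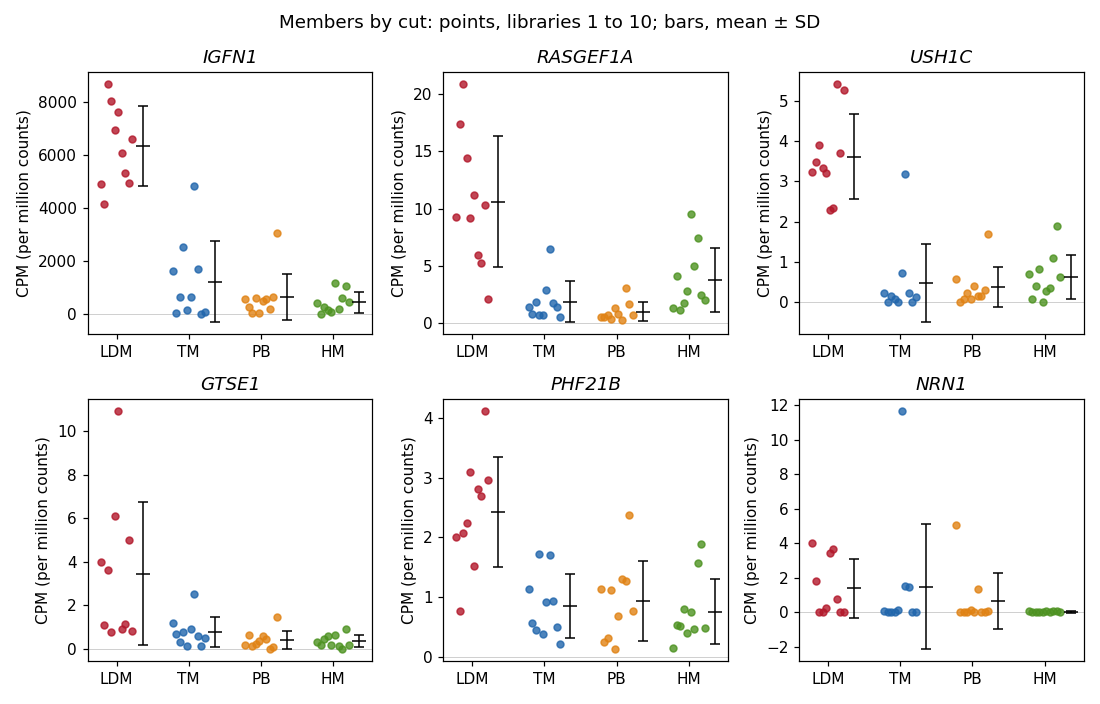
CPM of each of the 6 genes (y axis, linear, a scale per gene) in LDM, TM, PB and HM (x axis); points are libraries 1 to 10 of a cut from left to right and bars are the mean ± SD. IGFN1 and USH1C in LDM lie above all PB and HM libraries, and NRN1 is near 0 in all HM libraries and in many libraries of the other cuts.

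The change of IGFN1 in LDM over TM was 2.61 ± 0.73 on the log2 scale (SE), a 6.11-fold higher fitted level, with an adjusted p of 0.00745 by edgeR's quasi-likelihood test with Benjamini-Hochberg adjustment over 11713 genes. Without TM7 this log2 change was 3.07. The log2 change was 3.21 ± 0.75 in LDM over PB and 3.95 ± 0.77 in LDM over HM (SE, no test). Without PB10 the change over PB was 3.99. Mean levels ran in the order LDM, TM, PB and HM. The last 3 cuts did not differ beyond their spread: TM over PB was 0.60 ± 0.69 (95% interval -0.75 to 1.95), TM over HM was 1.34 ± 0.70 (-0.03 to 2.71) and PB over HM was 0.74 ± 0.69 (-0.61 to 2.09).

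USH1C followed the same division of libraries at a far lower level. Its lowest, median and highest libraries had 2.28, 3.41 and 5.44 CPM in LDM, 0, 0.121 and 3.17 CPM in TM, 0, 0.185 and 1.69 CPM in PB, and 0, 0.508 and 1.88 CPM in HM. Again every LDM library was above every PB and HM library, and again TM7 was the TM library inside the LDM range. The summed counts over 10 libraries were 553 in LDM, 71 in TM, 49 in PB and 92 in HM, and 50 of the 71 TM counts came from TM7. USH1C averaged 3.62 ± 1.05 CPM in LDM, 0.460 ± 0.977 CPM in TM, 0.356 ± 0.500 CPM in PB and 0.616 ± 0.557 CPM in HM (SD, n = 10 each).

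USH1C was higher in LDM than in TM by 3.21 ± 0.63 (log2, SE), an adjusted p of 0.000269 by edgeR, and this became 4.59 without TM7. It differed by 3.26 ± 0.65 in LDM over PB and by 2.59 ± 0.61 in LDM over HM (log2, SE, no test), and the first of these was 4.06 without PB10. Between TM and PB the log2 change was 0.05 ± 0.67, with a 95% interval of -1.27 to 1.37, and its sign turned to -1.39 without TM7. The gene passed the filter on low counts through LDM, since at least 10 counts were present in 10 LDM libraries, 2 TM libraries, 1 PB library and 3 HM libraries. A higher level in LDM was thus favoured by the filter. Of its known partners, the Usher and intermicrovillar adhesion complex, 14 genes were in the table and 3 had counts enough for a test. In LDM over TM 0 of these 3 passed by edgeR and 1 had an unadjusted p under 0.05. The calcium-binding protein gene CIB2 had 3.24 ± 1.39 CPM in LDM and 5.02 ± 2.09 CPM in TM (adjusted p = 0.116), the motor protein gene MYO7A had 0.665 ± 0.290 CPM in LDM and 0.875 ± 0.504 CPM in TM (adjusted p = 0.723), and the cadherin gene CDH23 had 6.03 ± 1.98 CPM in LDM and 7.04 ± 1.71 CPM in TM (adjusted p = 0.762; SD, n = 10 each, edgeR).

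Markers of epithelia, where harmonin is best known, were at low levels in these muscles. Over 8 epithelial markers the summed level ran from 13.3 to 73.6 CPM in LDM libraries, 8.80 to 45.7 CPM in TM, 5.85 to 37.6 CPM in PB and 6.70 to 37.8 CPM in HM. EPCAM averaged 0.0669 CPM in LDM and had no count in TM, and KRT5 had no count in LDM, TM or PB. Of the 4 epithelial markers tested in LDM over TM 1 was higher and none was lower: TP63, a p53-family transcription factor gene, by 1.22 ± 0.36 (log2, SE; adjusted p = 0.0116 by edgeR), with 31.1 ± 15.6 CPM in LDM and 14.9 ± 7.83 CPM in TM. The other 3 did not pass, and the median log2 change of the 4 was -0.14. KRT19 and KRT8, next by adjusted p, changed by -0.88 and -0.45 on the log2 scale (adjusted p = 0.197 and 0.619 by edgeR). Beside these, 13.4% of all genes were called higher and 11.3% lower. TP63 averaged 16.2 CPM in PB and 10.1 CPM in HM. It made up most of the summed level, whose medians were 34.9 CPM in LDM, 21.0 CPM in TM, 18.5 CPM in PB and 17.0 CPM in HM. The part of epithelial cells in the USH1C result was not tested.

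RASGEF1A was highest in LDM and next highest in HM. Its lowest, median and highest libraries had 2.11, 9.79 and 20.9 CPM in LDM, 0.507, 1.42 and 6.48 CPM in TM, 0.292, 0.699 and 3.06 CPM in PB, and 1.12, 2.63 and 9.54 CPM in HM. LDM overlapped the other cuts through its lowest library, LDM10: 2 TM libraries, 1 PB library and 6 HM libraries were at or above it. The means were 10.6 ± 5.70 CPM in LDM, 1.86 ± 1.78 CPM in TM, 1.0 ± 0.84 CPM in PB and 3.76 ± 2.81 CPM in HM (SD, n = 10 each).

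RASGEF1A was higher in LDM than in TM by 2.75 ± 0.45 (log2, SE), or 6.75-fold, with an adjusted p of 2.67e-05 by edgeR. The log2 change was 3.27 ± 0.47 in LDM over PB and 1.62 ± 0.42 in LDM over HM (SE, no test). Among the cuts without LDM, RASGEF1A was lower in PB than in HM by edgeR: the log2 change of PB over HM was -1.65 ± 0.46 (adjusted p = 0.00612), which is past the threshold in all 40 fits without 1 library (adjusted p 0.000836 to 0.0209) and in the 10 other alternatives (0.00193 to 0.0112). All these fits use PB and HM libraries, which also chose the gene, so their p-values are not independent of the choice. TM over HM was -1.14 ± 0.44 (log2, SE), with an unadjusted p of 0.0129 and an adjusted p of 0.237 by edgeR. This change did not pass after adjustment over 11713 genes. The libraries overlapped widely, with 0.507 to 6.48 CPM in TM and 1.12 to 9.54 CPM in HM. TM over PB was 0.51 ± 0.46 (adjusted p = 0.446 by edgeR), so that TM was not separated from PB beyond the spread.

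Of the RAS and RAP exchange factors and their GTPases, 32 genes were tested in LDM over TM, where 6 were higher and 7 lower with a median log2 change of -0.11. The shares over all genes were 13.4% higher and 11.3% lower. RAPGEF1, an exchange factor for RAP1, rose by 0.61 ± 0.11 (log2, SE; adjusted p = 8.12e-05 by edgeR), with 426 ± 69.0 CPM in LDM and 306 ± 45.4 CPM in TM. The GTPase gene HRAS rose by 0.68 ± 0.13 (adjusted p = 0.000251 by edgeR). TNIK, a kinase that binds RAP2, fell by 0.98 on the log2 scale, with 9.94 ± 4.64 CPM in LDM and 21.2 ± 5.66 CPM in TM (adjusted p = 0.00113 by edgeR). The summed level of the list ran from 890 to 1069 CPM in LDM and from 805 to 1093 CPM in TM, ranges that overlap widely.

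GTSE1 split the LDM libraries. In LDM, 5 libraries had 12 to 19 counts and the other 5 had 56 to 158 counts, with no library between. The lowest, median and highest levels were 0.803, 2.39 and 10.9 CPM in LDM, 0.127, 0.656 and 2.54 CPM in TM, 0, 0.305 and 1.48 CPM in PB, and 0, 0.254 and 0.942 CPM in HM. The 5 higher libraries were LDM1, LDM3, LDM5, LDM6 and LDM9, and their levels of 3.64 CPM or more were above all 30 libraries of the other cuts. The lower LDM libraries overlapped 3 TM libraries, 1 PB library and 1 HM library.

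GTSE1 averaged 3.45 ± 3.28 CPM in LDM, 0.785 ± 0.704 CPM in TM, 0.413 ± 0.435 CPM in PB and 0.365 ± 0.287 CPM in HM (SD, n = 10 each). It was higher in LDM than in TM by 2.29 ± 0.52 (log2, SE), with an adjusted p of 0.00119 by edgeR; without LDM6, its highest library, the log2 change was 1.88 with an adjusted p of 0.00638. GTSE1 passed the filter on low counts through LDM, since at least 10 counts were present in 10 LDM, 5 TM, 2 PB and 1 HM libraries, so a difference of this direction was favoured by the filter. The log2 change was 2.92 ± 0.55 in LDM over PB and 3.27 ± 0.56 in LDM over HM (SE, no test). TM, PB and HM followed LDM in that order of means, without passing the test between any of them: TM over PB was 0.63 ± 0.57, TM over HM 0.97 ± 0.57 and PB over HM 0.34 ± 0.60 (log2, SE), with adjusted p of 0.444, 0.492 and 0.715 by edgeR.

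Other genes of the cell cycle and the spindle had a summed level of 196 to 352 CPM in LDM and 217 to 376 CPM in TM. Of 39 in the table, 24 had counts enough for a test in LDM over TM, where 3 were higher and none lower, with a median log2 change of 0.15. Over all genes 13.4% were called higher and 11.3% lower, so the number higher was near that share. The replication licensing gene MCM7 rose by 0.51 ± 0.11 (adjusted p = 0.000768), the spindle assembly gene TPX2 by 0.93 ± 0.31 (adjusted p = 0.0233) and the survivin gene BIRC5 by 0.68 ± 0.23 (adjusted p = 0.0244; log2, SE, edgeR). Several defining genes of dividing cells were too low to test: CDK1 averaged 0.0874 CPM in LDM, 0.0841 CPM in TM, 0.0661 CPM in PB and 0.0640 CPM in HM, and TOP2A averaged 0.328 CPM in LDM, 0.534 CPM in TM, 0.698 CPM in PB and 0.393 CPM in HM. Among p53 and its targets, 15 genes were tested, of which MDM2, the ubiquitin ligase gene that limits p53, rose by 1.03 ± 0.21 (log2, SE; adjusted p = 0.000379) and the death receptor gene FAS fell by 0.92 on the log2 scale (adjusted p = 0.000852, both by edgeR). The other 13 did not pass.

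PHF21B had the smallest of the 5 changes that passed in LDM over TM. Its lowest, median and highest libraries had 0.768, 2.46 and 4.11 CPM in LDM, 0.226, 0.752 and 1.73 CPM in TM, 0.129, 0.947 and 2.38 CPM in PB, and 0.150, 0.529 and 1.88 CPM in HM. LDM2, the lowest LDM library, was matched or passed by 5 TM, 6 PB and 3 HM libraries, and 8 of the 10 LDM libraries were above every TM library, 5 above every PB library and 8 above every HM library. The means were 2.43 ± 0.923 CPM in LDM, 0.860 ± 0.536 CPM in TM, 0.937 ± 0.666 CPM in PB and 0.760 ± 0.546 CPM in HM (SD, n = 10 each).

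PHF21B was higher in LDM than in TM by 1.63 ± 0.38 (log2, SE), or 3.10-fold, with an adjusted p of 0.0014 by edgeR. The log2 change was 1.28 ± 0.38 in LDM over PB and 1.68 ± 0.38 in LDM over HM (SE, no test). PB, TM and HM did not differ from each other beyond their spread, with log2 changes of -0.36 ± 0.39 in TM over PB, 0.04 ± 0.39 in TM over HM and 0.40 ± 0.39 in PB over HM (SE; adjusted p between 0.473 and 0.981 by edgeR). Of the KDM1A and CoREST complex 16 genes were tested in LDM over TM. The corepressor genes CTBP2 and CTBP1 rose, by 0.77 ± 0.14 and 0.28 ± 0.08, and the deacetylase gene HDAC1 fell by 0.33 on the log2 scale (adjusted p = 0.00015, 0.00645 and 0.0311 by edgeR). The other 13 did not pass, and the median log2 change of the list was 0.09. Among all genes, 13.4% were called higher and 11.3% lower in LDM over TM.

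NRN1 was detected in some libraries of LDM, TM and PB and was near 0 in HM. It had 509 counts in all: 209 in LDM, 212 in TM, 84 in PB and 4 in HM. At least 10 counts were found in 10 libraries, namely LDM1, LDM2, LDM6, LDM7 and LDM8, TM6, TM7 and TM8, and PB1 and PB7, while 9 libraries had 1 to 4 counts, 21 had 0 and none had 5 to 9. TM6 alone held 163 of the TM counts, which left 49 in the other 9 TM libraries, and PB1 held 62 of the PB counts, which left 22. Highest levels were 4.0 CPM in LDM, 11.6 CPM in TM, 5.04 CPM in PB and 0.0752 CPM in HM, and the medians were 0.505 CPM in LDM, 0.0336 CPM in TM and 0 in PB and HM.

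The 10 libraries with NRN1 carried 5 of the 10 library numbers, 1, 2, 6, 7 and 8, in LDM, TM and PB. Libraries with the other 5 numbers reached at most 4 counts in any cut. Number 7 had 55 counts in LDM, 24 in TM and 19 in PB, the single number with at least 10 in all 3 cuts. Number 6 had 50 in LDM, 163 in TM and 0 in PB, and number 8 had 11 in LDM, 22 in TM and 0 in PB. Number 1 had 58 in LDM, 1 in TM and 62 in PB, and number 2 had 31 in LDM and 0 in TM and PB. The labels do not state what libraries of the same number share, and the pattern was noticed in the data, so it is given as counts only.

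The mean level of NRN1 was 1.40 ± 1.70 CPM in LDM, 1.49 ± 3.62 CPM in TM, 0.662 ± 1.60 CPM in PB and 0.0275 ± 0.0357 CPM in HM (SD, n = 10 each), so that TM and not LDM had the highest mean. LDM over TM gave a log2 change of 0.15 ± 0.97 (95% interval -1.76 to 2.06; adjusted p = 0.929 by edgeR), which became 2.09 without TM6 and -0.23 without LDM1, neither past the threshold. The log2 change was 1.05 ± 1.03 in LDM over PB, or 2.85 without PB1, and 5.33 ± 1.5 in LDM over HM, or 3.42 with limma-voom (SE, no test). The changes against HM rest on 4 HM counts in all, each a single count in a library. No HM library reached 10 counts, so NRN1 passed the filter on low counts through the other cuts, LDM among them. A lower level in HM was thus favoured by the filter. NRN1 was higher in PB than in HM by 4.28 ± 1.57 (log2, SE; adjusted p = 0.0383 by edgeR), a call that is lost without PB1, where the log2 change was 2.47 with an adjusted p of 0.289, and also without PB7, HM2, HM3, HM4, HM5, HM7 or HM10. TM over HM was 5.18 ± 1.5 (adjusted p = 0.095 by edgeR), or 3.21 without TM6 and 1.57 with limma-voom. PB over HM and TM over HM use libraries that also chose the gene, so their p-values are not independent of the choice.

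**Figure D2:**
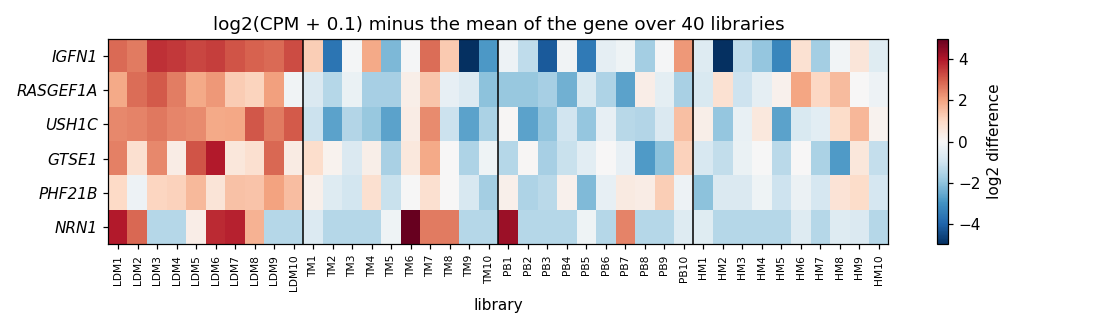
Level of the 6 genes (rows) in each of the 40 libraries (columns, in the order LDM, TM, PB, HM), as log2(CPM + 0.1) minus the mean of the gene over the 40 libraries, with colours limited at 5 log2 units on either side. The LDM block is red for IGFN1 and USH1C in all 10 libraries, and NRN1 is red in 10 single libraries of LDM, TM and PB.

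Neurotrophic factors and their receptors act, like neuritin, on nerve growth. Of 16 tested in LDM over TM 1 was higher and 6 were lower, with a median log2 change of -0.42. The shares over all genes were 13.4% higher and 11.3% lower. The growth factor gene IGF2 fell by 0.61 on the log2 scale, with 69.5 ± 8.91 CPM in LDM and 116 ± 24.6 CPM in TM (adjusted p = 0.00053). The receptor gene RET fell by 1.34 (adjusted p = 0.000817) and the insulin receptor gene INSR by 1.05 (adjusted p = 0.00293; log2, edgeR). At the neuromuscular junction, 11 genes were tested, of which 4 were lower and none higher, with a median log2 change of 0.02. The acetylcholine receptor genes CHRNA1 and CHRNE and the collagen tail gene COLQ of acetylcholinesterase were lower in LDM than in TM, by log2 changes of -1.33, -1.11 and -1.34 (adjusted p = 0.00517, 0.0147 and 0.0101 by edgeR). The summed level of 9 neuronal markers was 4.30 to 14.96 CPM in LDM, 2.98 to 14.3 CPM in TM, 2.51 to 9.48 CPM in PB and 10.1 to 22.1 CPM in HM. Most of it was UCHL1, the 1 marker with counts enough for a test. It averaged 9.69 CPM in LDM, 6.80 CPM in TM, 4.16 CPM in PB and 11.8 CPM in HM, so the sums say little about the other markers. The neuronal gene ELAVL4 had no count in LDM, and SNAP25 had none in TM and HM. The part of nerve tissue in the NRN1 counts was not tested.

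Set side by side, 5 of the 6 genes were higher in LDM than in TM by edgeR, where 13.4% of the 11713 genes tested were called higher and 24.7% were called in either direction. The 6 genes had a median log2 change of 2.45 in LDM over TM, beside a median of -0.04 over all genes, and they were chosen for high values in these LDM libraries. USH1C and GTSE1 also passed the filter on low counts through LDM, which favoured a higher level in LDM over TM. USH1C ranked 6 from the highest of all genes in this comparison, RASGEF1A 11, IGFN1 14, GTSE1 21, PHF21B 82 and NRN1 3915. Every LDM library lay above every TM library for 0 of the 6 genes and for 13 of all genes, or 0.111%. Every LDM library lay above every PB library for IGFN1 and USH1C, 2 of the 6, against 2.29% of all genes, and above every HM library for the same 2, against 0.581%. The median log2 changes of the 6 genes were 3.07 in LDM over PB and 2.93 in LDM over HM, contrasts that chose them. DESeq2 and limma-voom also called the 5 genes in LDM over TM.

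**Figure D3:**
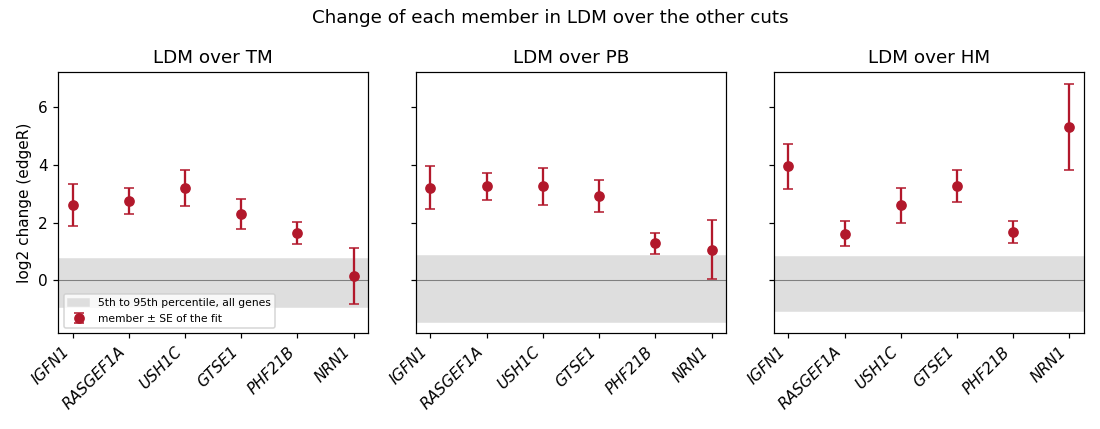
Log2 change (y axis, edgeR) of the 6 genes (x axis) in LDM over TM, PB and HM; points are the fitted changes, bars their SE, and the grey band the 5th to 95th percentile of all 11713 genes. In LDM over TM 5 genes lie above the band, between 1.63 and 3.21, and NRN1 lies within it at 0.15.

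The 3 pairs of cuts without LDM were tested in the same fit. In TM over PB 0 of the 6 genes passed by edgeR, none had an unadjusted p under 0.05 and none passed with DESeq2 or limma-voom, where 23.1% of all genes were called. In TM over HM 0 of the 6 passed by edgeR, DESeq2 or limma-voom and 2, RASGEF1A and NRN1, had an unadjusted p under 0.05, where 0.768% of all genes were called. In PB over HM 2 of the 6 passed by edgeR, RASGEF1A lower and NRN1 higher in PB, where 27.6% of all genes were called; limma-voom called RASGEF1A alone. These 3 comparisons use the PB and HM libraries that also chose the genes, and all pairs with a cut in common share its libraries.

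The same few libraries outside LDM carried the highest values of several genes. TM7 was the highest TM library for IGFN1, RASGEF1A, USH1C and GTSE1, PB10 the highest PB library for IGFN1, USH1C and GTSE1, and HM9 the highest HM library for USH1C, GTSE1 and PHF21B. HM6 was the highest HM library for IGFN1 and RASGEF1A. TM7, PB10 and HM9 were also the extreme ones of their cuts in fibre type genes, while HM6, with 33992 CPM of slow and 83030 CPM of fast fibre genes, was not. Over 11 slow fibre genes, among them the slow myosin gene MYH7, TM7 had the lowest summed level of TM with 15478 CPM, PB10 the lowest of PB with 29107 CPM and HM9 the lowest of HM with 18011 CPM. Over 14 fast fibre genes, TM7 had the highest summed level of TM with 122956 CPM, PB10 of PB with 132146 CPM and HM9 of HM with 117373 CPM. LDM libraries had 9766 to 24216 CPM of slow fibre genes and 104783 to 163075 CPM of fast fibre genes. The TM range was 15478 to 128057 CPM for slow genes and 23032 to 122956 CPM for fast genes.

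With TM7, PB10 and HM9 left out together, an alternative chosen after seeing the data, the log2 change in LDM over TM was 3.07 for IGFN1, 3.14 for RASGEF1A, 4.59 for USH1C, 2.62 for GTSE1 and 1.75 for PHF21B. Since TM7 was the highest TM library for 4 of the genes, leaving it out favours higher values for them, and the values are given as a description. The part of fibre composition in the differences between cuts was not tested.

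**Figure D4:**
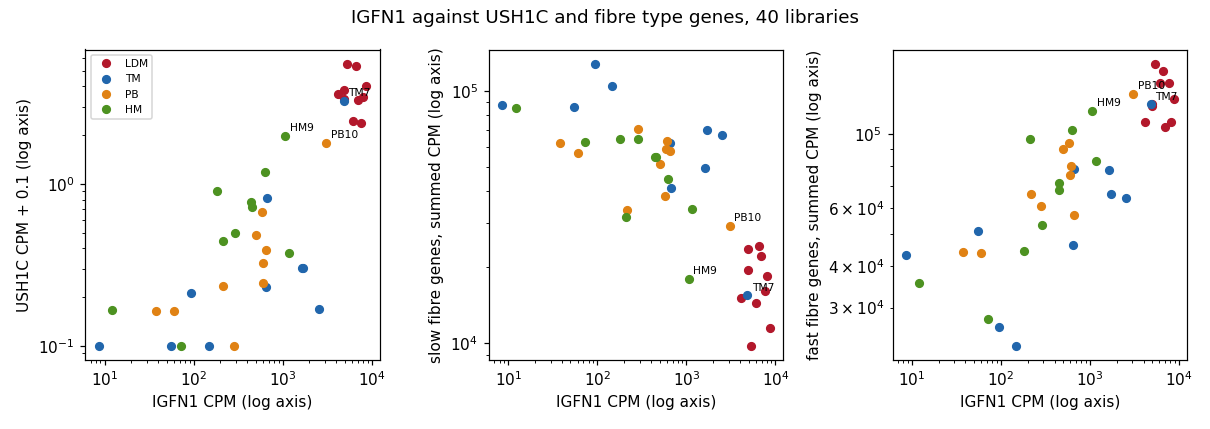
IGFN1 CPM (x axis, log) against USH1C CPM + 0.1 (left), the summed CPM of slow fibre genes (middle) and of fast fibre genes (right), all on log axes; each point is a library of LDM, TM, PB or HM. TM7 lies among the LDM libraries in all panels, and PB10 and HM9 have the highest USH1C, the lowest slow and the highest fast fibre levels of their cuts, with IGFN1 at 3076 and 1065 CPM.

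Most genes of the fibre type lists differed between LDM and the other cuts. In LDM over TM 13 of 14 fast fibre genes were higher and none lower, with a median log2 change of 1.30, and 11 of 11 slow fibre genes were lower, with a median of -1.93. Among all genes, 13.4% were called higher and 11.3% lower there. MYH7 averaged 8887 ± 3159 CPM in LDM and 36217 ± 18799 CPM in TM, a log2 change of -1.93 ± 0.33 (SE; adjusted p = 5.13e-05 by edgeR). The gene model that holds the fast myosin genes MYH4, MYH1 and MYH2 together averaged 31357 ± 6585 CPM in LDM and 17705 ± 7574 CPM in TM, a log2 change of 0.99 ± 0.23 (adjusted p = 0.00179 by edgeR). In LDM over PB 12 of 14 fast genes were higher and 11 of 11 slow genes lower, where 21.2% of all genes were called higher and 20.5% lower. In LDM over HM these counts were 13 and 11, where 16.0% of all genes were called higher and 16.5% lower. ACTA1, present in all fibre types, fell by 0.48 on the log2 scale in LDM over TM (adjusted p = 0.024 by edgeR).

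Among the sarcomere proteins with domains like those of IGFN1, 13 genes were tested in LDM over TM, 4 higher and 2 lower, with a median log2 change of 0.21. The shares over all genes were 13.4% higher and 11.3% lower. The fast myosin-binding protein gene MYBPC2 rose by 1.60 ± 0.26 (adjusted p = 2.12e-05) and the myopalladin gene MYPN by 1.10 ± 0.16 (adjusted p = 8.87e-06), while the slow myosin-binding protein gene MYBPC1 fell by 1.51 (adjusted p = 1.17e-07; log2, SE, edgeR). MYBPC2 and MYBPC1 are also in the fast and slow fibre lists. MYPN had 2038 ± 206 CPM in LDM and 1056 ± 303 CPM in TM, with its highest TM library at 1771 CPM and its lowest LDM library at 1696 CPM.

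Of the KY, filamin and translation elongation partners of IGFN1, 12 genes were tested in LDM over TM, 3 higher and 2 lower, with a median log2 change of 0.17. Over all genes these shares were 13.4% and 11.3%. KY, the muscle protein that binds IGFN1 in the mouse, rose by 2.69 ± 0.58 (log2, SE; adjusted p = 0.000774 by edgeR), with 64.9 ± 38.7 CPM in LDM and 11.8 ± 14.8 CPM in TM. KY ran from 24.8 to 155 CPM in LDM and from 0.886 to 51.0 CPM in TM, so the cuts overlapped. The fast fibre actinin gene ACTN3, also in the fast fibre list, rose by 1.97 ± 0.35 (adjusted p = 8.88e-05), and ACTN2, the actinin gene of all fibres, fell by 0.90 (adjusted p = 0.00146; log2, SE, edgeR).

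**Figure D5:**
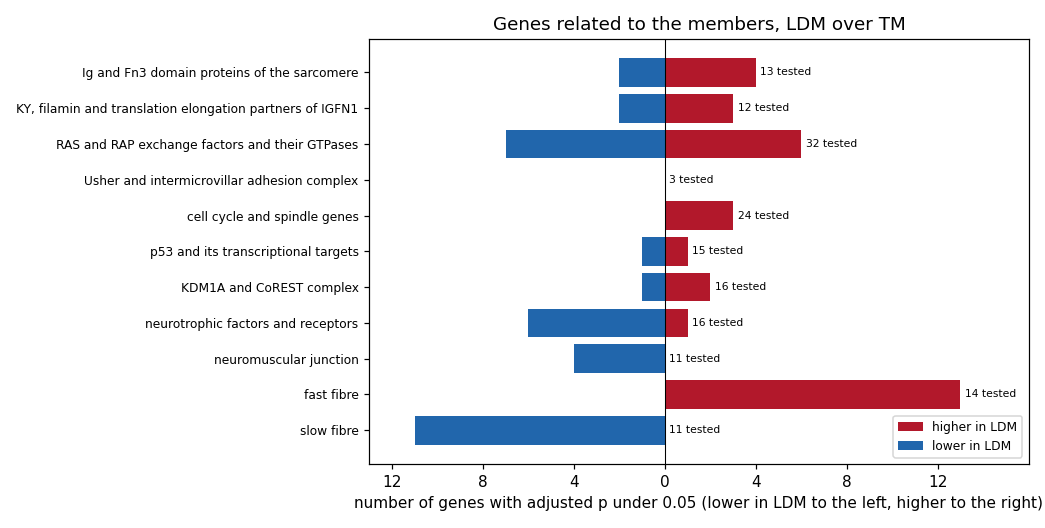
Number of genes with an adjusted p under 0.05 in LDM over TM (x axis; lower in LDM to the left, higher in LDM to the right) in each list of related genes (y axis), with the number tested beside the bar. Fast fibre genes were higher in 13 of 14 and slow fibre genes lower in 11 of 11, and the Usher complex list has 3 genes tested and no call.

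Some markers of other cells differed between LDM and TM, where 11.3% of all genes were called lower and 13.4% higher in LDM. Endothelial markers were lower in LDM for 7 of 9 genes and higher for none, with summed levels of 341 to 455 CPM in LDM and 409 to 912 CPM in TM. Adipocyte markers were lower for 1 of 7 and fibroblast and matrix markers for 2 of 8, with none higher. Schwann cell markers had 1 higher and 1 lower of 7, with a median log2 change of -0.64. The higher was MBP, a myelin gene, at 104 ± 31.1 CPM in LDM and 45.3 ± 29.9 CPM in TM. The lower was PMP2, at 1.49 ± 1.75 CPM in LDM and 5.58 ± 10.1 CPM in TM. Leukocyte markers had 1 lower of 6. Of 8 myogenic and satellite cell markers 2 were higher, the developmental myosin genes MYH8, with 32.9 ± 10.1 CPM in LDM and 8.26 ± 4.15 CPM in TM, and MYH3, with 58.6 ± 23.0 CPM in LDM and 19.5 ± 14.1 CPM in TM. The part of these cells in the results of the 6 genes was not tested.

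Within a cut, the 6 genes were compared with each other and with MYH7 and the fast myosin gene model over its 10 libraries, 108 relations in all, by permutation tests with 100000 resamples and Benjamini-Hochberg adjustment over the 108. A single relation passed by Pearson's r and none by Spearman's rho. In TM, RASGEF1A ran against MYH7 with r = -0.898 (permutation p = 0.00037, adjusted p = 0.04) and rho = -0.855 (permutation p = 0.00301, adjusted p = 0.106). Without TM7 and TM10, the 2 libraries farthest from the median of RASGEF1A, r was -0.698 (permutation p = 0.047, adjusted p = 0.441), so the relation no longer passed without those libraries. USH1C against MYH7 had r = -0.92 in TM (adjusted permutation p = 0.0783) with rho = -0.827 (0.106), and r = -0.80 in PB (0.0862) with rho = -0.782 (0.14). Without the 2 farthest libraries of each cut these r were -0.471 in TM and -0.589 in PB.

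IGFN1 and USH1C had r = 0.196 in LDM, 0.644 in TM, 0.782 in PB and 0.706 in HM, with adjusted permutation p of 0.732, 0.206, 0.128 and 0.173. Their rho was 0.0909 in LDM, 0.717 in TM, 0.758 in PB and 0.612 in HM, with adjusted permutation p of 0.903, 0.189, 0.149 and 0.276. Without the 2 libraries farthest from the median of IGFN1, r was -0.02 in LDM, 0.54 in TM, 0.877 in PB and 0.322 in HM. All 15 pairs of the 6 genes had a positive r in TM, with a median of 0.637, against 7 of 15 in LDM with a median of -0.02, 9 of 15 in PB with 0.156 and 11 of 15 in HM with 0.251. None of these 60 relations between 2 of the genes passed after adjustment over all 10 libraries of a cut. IGFN1 and PHF21B in TM had r = 0.714 (adjusted permutation p = 0.173). Without TM2 and TM9 their r was 0.935 (permutation p = 0.000397, adjusted p = 0.0429), so this pair passed only with those libraries left out. A difference between cuts was not tested.

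The genes most like each of the 6 over the 40 libraries were sought among 10032 genes by Pearson's r of log2 CPM, as a description without a p, since the points share cuts and depth. For IGFN1 these were the muscle phosphofructokinase gene PFKM (r = 0.894), the enolase gene ENO3 (0.888) and the AMP kinase subunit gene PRKAG3 (0.886). For USH1C they were the phosphoglycerate kinase gene PGK1 (0.948), the bisphosphoglycerate mutase gene BPGM (0.929) and PFKM (0.924). PGK1 was also the nearest gene to both once the mean of each cut was taken out, with r = 0.812 for IGFN1 and 0.858 for USH1C. PGK1 averaged 945 ± 140 CPM in LDM, 324 ± 237 CPM in TM, 321 ± 151 CPM in PB and 386 ± 154 CPM in HM (SD, n = 10 each), and its highest TM, PB and HM libraries were TM7, PB10 and HM9 with 913, 662 and 658 CPM.

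The other 4 genes had other neighbours in this ranking. For RASGEF1A they were the creatine transporter gene SLC6A8 (r = 0.867), the autophagy receptor gene SQSTM1 (0.798) and TTLL11 (0.774), and SLC6A8 had the same order of cut means, 831 CPM in LDM, 432 CPM in TM, 328 CPM in PB and 554 CPM in HM. For PHF21B they were the pyruvate dehydrogenase kinase gene PDK3 (0.841), MBD3 (0.831) and ANKRD13B (0.824). For GTSE1 they were the liver X receptor gene NR1H2 (0.767) and TMEM184A (0.752). NRN1 had the lowest values, with PKP2 at 0.647, COL11A1 at 0.606 and PPP3CB at 0.604. With cut means taken out the nearest were RBBP6 for RASGEF1A (0.69), PDK3 for PHF21B (0.704), POLR2B for GTSE1 (0.557) and ZWILCH for NRN1 (0.663). Among the 6 genes themselves IGFN1 and USH1C were the most alike, with r = 0.821, or 0.673 with cut means taken out.

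Per length, IGFN1 stood far above the other 5 genes in every cut. Its mean FPKM was 1469 in LDM, 286 in TM, 153 in PB and 105 in HM. The next of the genes was RASGEF1A in LDM with 2.14 FPKM and in HM with 0.759 FPKM, and NRN1 in TM with 0.829 FPKM and in PB with 0.370 FPKM. IGFN1 was thus 686 times the next in LDM and 345, 415 and 138 times in TM, PB and HM. RASGEF1A had at most 321 counts in a library, while the median count of IGFN1 was 5155 or more in every cut, so the other 5 genes carry a larger counting error.

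The 6 genes lie at 6 places on 5 chromosomes of the build Sscrofa11.1 and none overlaps another gene of the table. IGFN1 is at chr10:23628979-23660631 on the plus strand, RASGEF1A at chr14:61424822-61517745 on the minus strand, USH1C at chr2:41593802-41647411 on the plus strand and NRN1 at chr7:3682567-3691421 on the minus strand. GTSE1 at chr5:3227816-3242789 on the minus strand and PHF21B at chr5:4291396-4389943 on the plus strand share a chromosome. In LDM over TM the nearest gene to IGFN1, TMEM9 at 18262 bases, rose by 0.97 ± 0.31 (log2, SE; adjusted p = 0.0168), and PKP1 at 28748 bases changed by 0.18 ± 0.46 (adjusted p = 0.808, both by edgeR). NUP50 beside PHF21B rose by 0.28 ± 0.10 (adjusted p = 0.0433) and FARS2 beside NRN1 fell by 0.49 (adjusted p = 0.0264; log2, edgeR). CSGALNACT2 beside RASGEF1A, ABCC8 beside USH1C, TRMU and TTC38 beside GTSE1 and F13A1 beside NRN1 did not pass, with log2 changes between -0.92 and 0.32, and FXYD4, OTOG and ARHGAP8 had too few counts to test.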

How the data were processed

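RNA of LDM, TM, PB and HM was sequenced from libraries made with a KAPA stranded kit, per the labels' protocols. The submitters' processing notes list HTSeq 0.9.1, HISAT2 2.0.5, cutadapt 1.15 and the build Sscrofa11.1 without roles or settings, so whether the counting used strand is not known. Per the file headers, the authors deposited whole-number counts and FPKM for 21280 genes. The deposited FPKM was the count over gene length and library total for 100% of values above 0 (relative tolerance 0.001) and was used only to compare levels between genes. There were 0 lines that name no gene.

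Libraries were placed in cuts by title. The other 5 genes were matched by name; IGFN1, unnamed in the table, was matched by its RefSeq position on the same build and its description (ENSSSCG00000036948). CPM is the count scaled to the library total. The 40 libraries were fitted together by edgeR 4.0.16 (R 4.3.3), robustly and by quasi-likelihood, with TMM scaling and no covariate beside the cut. The filterByExpr filter by cut left 11713 genes, the 6 followed here included. USH1C and GTSE1 passed it through LDM. NRN1 had at least 10 counts in 10 libraries, 5 of LDM, 3 of TM, 2 of PB and 0 of HM, so LDM also helped it pass. P-values were Benjamini-Hochberg adjusted over the 11713 genes, with a threshold of 0.05 on the adjusted p. Log2 CPM for correlations used a prior count of 2. The code was tested on simulated data. Alternatives were DESeq2 1.42.0, limma-voom (limma 3.58.1), other scalings and filters, a replicate block, each pair alone and leaving out libraries. Any pair of libraries within a cut differed by a chi-square of at least 29.8 per gene (genes with at least 20 counts), so none was taken for a library deposited again; this does not show that they came from separate pigs.

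The 6 genes, the gene lists and the rule for named genes were chosen with earlier results of these data known. The rule names, beside the 6 genes, the 3 genes most like each, the nearest gene on either side, up to 3 genes of each of 19 lists by smallest adjusted p in LDM over TM, and MYH7, the fast myosin gene model and ACTA1; a few further list genes are named for their low levels, and 1 gene that the rule names is not reported here.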

Additional observations from a re-analysis of the deposited data

Results flagged for a closer look

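In 12 of the 24 groups of 10 libraries formed by the 6 genes and 4 cuts, 1 library stood far from the nearest other for the range of its group, where chance flags about 1 group in 20. The highest library of the cut stood apart in each case. TM7 did so for IGFN1 with 4834 CPM (next 2545 CPM), RASGEF1A with 6.48 CPM (2.93 CPM), USH1C with 3.17 CPM (0.715 CPM) and GTSE1 with 2.54 CPM (1.21 CPM). PB10 did so for IGFN1 with 3076 CPM (654 CPM), USH1C with 1.69 CPM (0.569 CPM) and GTSE1 with 1.48 CPM (0.635 CPM). The remaining flags were RASGEF1A in PB8 with 3.06 CPM, PHF21B in PB9 with 2.38 CPM, GTSE1 in LDM6 with 10.9 CPM, and NRN1 in TM6 with 11.6 CPM and in PB1 with 5.04 CPM. The flags are not independent of each other, since TM7 and PB10 account for 7 of them, and levels of low genes are skewed.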

How the results depend on the processing

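IGFN1, RASGEF1A, USH1C, GTSE1 and PHF21B kept their direction and their call in LDM over TM under the 10 alternatives and without each of the 40 libraries in turn. All these fits reuse LDM libraries that chose the genes, so the kept calls are not independent of the choice. USH1C and GTSE1 also passed the main filter through LDM. Over these 10 alternatives the log2 change ran from 2.53 to 4.02 for IGFN1 (adjusted p 0.000526 to 0.0141) and from 3.14 to 4.74 for USH1C (7.85e-08 to 0.000528). Of 423 values under alternatives other than leaving out 1 library, 404 stayed within the bounds set for them, 9 moved, 3 lost the call and 7 turned direction; the cause was not tested. USH1C in TM over PB turned to -0.057 with DESeq2, -0.93 with limma-voom, -0.12 with the replicate block, -1.33 without HM6, HM9, TM3 and TM7 and -0.60 without TM7, PB10 and HM9. IGFN1 in TM over PB turned to -0.21 with limma-voom, and NRN1 in LDM over TM to -0.046 without HM6, HM9, TM3 and TM7; both sets of left-out libraries were chosen after seeing the data. The 90 genes called in TM over HM became 199 with DESeq2, 312 with limma-voom and 213 with the replicate block. The 2 calls among the 6 genes in the 3 pairs without LDM became 1 with limma-voom, without the low-count filter, with 1 CPM required in 10 libraries, with each pair alone, or without HM6, HM9, TM3 and TM7; the call of NRN1 in PB over HM was lost with limma-voom (adjusted p = 0.377), no filter (0.0549) and those 4 libraries out (0.059), and NRN1 was not tested under the other 2. Leaving out 1 library moved genes called in TM over HM between 52 and 135, those 2 calls between 1 and 2, and the log2 change of NRN1 in LDM over TM between -0.23 and 2.09. It turned the direction of USH1C in TM over PB (-1.39 to 0.84), NRN1 in TM over PB (-1.11 to 2.70), PHF21B in TM over HM (-0.14 to 0.33), IGFN1 in PB over HM (-0.044 to 1.09) and GTSE1 in PB over HM (-0.14 to 0.73), none of them called. Same-numbered libraries deviated together over 0.1 in 52 of 60 relations (r -0.128 to 0.51, median 0.245). The own number was the best match, out of 10 candidates, in 28 of 60 relations, a sign in the data that numbers share something. The main tests took the libraries as unpaired. The ground was that at least 1 relation was not over 0.1 in each pair of cuts but LDM and HM. The 6 genes carry no test in that pair here. The shares of all genes and the counts of fibre type genes called in LDM over HM do come from the unpaired fit. If same-numbered libraries share a pig, the main p-values leave that pairing out. The replicate block takes it in, and no call of the 6 genes changed under it. With 1 count worth up to 0.0813 CPM and a count of 0 allowing up to 3 counts, differences near 0 below 0.169 to 0.244 CPM cannot be seen.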
